A study of Mus musculus with 12 samples.

Results

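Transcripts of 10 genes of vascular endothelium were followed in the arcuate nucleus of the hypothalamus (ARC), a cell cluster beside the median eminence that senses hormones from the blood. The genes were chosen by name, as rows of the deposited table whose gene symbol matched, and all 10 were found, each in 1 row, among 38283 genes. Of these, 4 belong to the blood-brain barrier (Cldn5, Slco1a4, Abcb1a and Ly6c1), 5 are used by endothelium of most vessels (Pecam1, Cdh5, Flt1, Kdr and Vwf), and Plvap marks fenestrated vessels. The filter on low values, a mean of at least 1 FPKM over the libraries, was passed by 8 of the 10, and Kdr (mean 0.980 FPKM) and Plvap (mean 0.718 FPKM) fell under it.

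Brain capillaries are closed by tight junctions between endothelial cells, and transporters in the endothelial membrane select what crosses in either direction. Capillaries of the median eminence, beside and partly within the ARC, instead have small pores spanned by diaphragms made of the Plvap protein, and are leaky to circulating peptides. A nucleus cut out at this border can therefore hold both kinds of vessel, and barrier transcripts were compared with Plvap for that reason.

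The 12 libraries came from 5 wild-type samples (WT) and 7 samples of mice homozygous for the R299Q mutation in Prkag2 (Homo), which encodes the γ2 subunit of the energy sensor AMPK. All were C57BL/6 males aged 8 weeks with free access to food. The mutation was knocked into the germline gene and so was carried by every cell, endothelium included. The ARC was laser-captured from 14 µm sections, and the RNA was amplified over the whole transcriptome, cut to about 200 bp and sequenced. Because a dissected nucleus was measured in bulk, fewer endothelial cells and less RNA per endothelial cell cannot be told apart. The labels do not state whether each library is a separate mouse, so p-values measure the spread between these libraries.

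Values were FPKM, a fragment rate corrected for the length of the transcript and the size of the library, and they summed to 1.33e+07 to 2.12e+07 per library, of which the 10 highest genes held 95.9% to 98.1%. The libraries fell into 2 sets when ordered by how many genes were above 0 and divided where that number jumped most. WT 1, WT 2 and Homo 1 to 5 listed 15742 to 16467 genes, and WT 3, WT 4, WT 5, Homo 6 and Homo 7 listed 18141 to 18635, so both genotypes occur in each set, but unevenly. The labels do not name the sets, which are called here the low-detection and the high-detection set. The sample titles of Homo 6 and Homo 7 are worded differently from those of Homo 1 to 5, while the WT titles share 1 wording. Neuronal Snap25 (489 ± 46.6 FPKM in WT, SD, n = 5, and 498 ± 75.7 in Homo, n = 7) was abundant in every library. Agrp, the neuropeptide transcript that defines an ARC cell type, averaged 301 FPKM in WT and 445 in Homo. Limma, which called only Jarid2 among all genes tested, did not call Agrp different between the genotypes. Prkag2 stood at 14.6 ± 5.43 FPKM in WT and 14.8 ± 4.88 in Homo, which is no check of the labels because a point mutation need not alter the level of the transcript.

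The sequence before the transcription start is shown for a tight junction gene, a transporter and a growth factor receptor, since Cldn5 and Slco1a4 had the highest correlation of any barrier pair and Flt1 stands for endothelium in general. Each is the 250 bases upstream of the start given by RefSeq on GRCm38.p6, written 5′ to 3′ on the strand of the gene. Capitals mark the letters AGGAAG, a core bound by ETS factors of endothelium, and ACAATG, a core bound by SOX factors, on either strand, where they read CTTCCT and CATTGT.
Cldn5, chr16:18776597-18776846, + strand: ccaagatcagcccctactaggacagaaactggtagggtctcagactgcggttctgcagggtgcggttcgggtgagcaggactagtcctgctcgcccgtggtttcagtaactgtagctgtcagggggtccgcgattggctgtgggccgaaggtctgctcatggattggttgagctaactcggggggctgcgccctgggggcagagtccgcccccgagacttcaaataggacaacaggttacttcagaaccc
Slco1a4, chr6:141856221-141856470, - strand: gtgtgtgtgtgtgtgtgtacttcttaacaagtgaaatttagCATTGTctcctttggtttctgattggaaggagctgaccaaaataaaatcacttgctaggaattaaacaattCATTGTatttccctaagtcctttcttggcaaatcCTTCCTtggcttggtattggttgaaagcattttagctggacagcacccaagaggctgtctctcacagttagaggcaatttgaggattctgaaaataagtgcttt
Flt1, chr5:147726012-147726261, - strand: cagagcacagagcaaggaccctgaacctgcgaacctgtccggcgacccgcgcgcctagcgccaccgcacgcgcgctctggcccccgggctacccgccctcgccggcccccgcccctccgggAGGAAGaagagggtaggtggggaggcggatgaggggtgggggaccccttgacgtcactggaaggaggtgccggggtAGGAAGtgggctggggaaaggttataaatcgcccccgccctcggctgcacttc
The Cldn5 window held neither motif and was 59.6% G or C. Slco1a4, with 39.2% G or C, held 1 ETS and 2 SOX matches, and Flt1, with 70.4%, held 2 ETS matches. RefSeq windows were matched for 6 of the 10 genes, Cldn5, Slco1a4, Abcb1a, Ly6c1, Flt1 and Kdr, with 2 overlapping windows for Ly6c1. The Abcb1a window, chr5:8566841-8567090, precedes the RefSeq start and lies well upstream of the GENCODE span of that gene. The ETS letters stood in 4 of these 7 windows, against 29.5% of 32851 mouse windows of that length, and the SOX letters in 1, against 10.7%. The TCF/LEF letters ATCAAAG, which Wnt signalling acts on, stood in 0 of the 7 windows and in 3.21% of all. These matches describe letters only.

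Cldn5 encodes claudin-5, the main sealing claudin of brain endothelial tight junctions, from a single annotated transcript on chromosome 16 (18776847 to 18778262, + strand, GRCm38). Its value was 1.58, 11.05, 6.31, 5.88 and 6.09 FPKM in WT 1 to 5, and ran from 2.67 in Homo 3 over a median of 6.18 to 21.3 in Homo 2. The lowest library was a WT and the highest a Homo, and the genotypes overlapped over most of their range. The means were 6.18 ± 3.35 FPKM in WT and 8.32 ± 6.13 in Homo, a log2 fold change of 0.33 with an SE of 0.42 (limma adjusted p = 0.939, exact permutation p = 0.559). The difference was smaller than the spread between libraries, and without WT 1 it was -0.0044.

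Slco1a4 encodes an organic anion transporter of brain capillaries that carries thyroid hormone and steroid conjugates (chromosome 6, 141805440 to 141856199, - strand). It was at 1.39, 13.3, 1.71, 5.30 and 6.68 FPKM in WT 1 to 5, so that the WT libraries alone spanned the whole range of the gene. In Homo it lay between 1.98 and 8.64 FPKM with a median of 3.47, inside the WT range. The log2 fold change was -0.22 with an SE of 0.43 (limma adjusted p = 0.973), and it was 0.13 without WT 2, the highest library. Of its relatives in the same cluster, Slco1a6 reached 4.01 ± 2.62 FPKM in WT and 1.70 ± 1.33 in Homo. The genotypes overlapped (0 to 6.59 FPKM in WT, 0 to 3.63 in Homo), and limma did not call Slco1a6. Slco1a5 and Slco1a1 were above 0 in 2 libraries each, and 2.73% of the 50-base stretches of the longest Slco1a4 transcript also occur in another gene.

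Ly6c1, a surface antigen of capillary endothelium, had the highest median of the 10 genes (chromosome 15, 75044018 to 75048830, - strand). WT 1 to 5 were at 13.0, 8.31, 8.29, 9.95 and 8.92 FPKM, and Homo ranged from 5.74 over a median of 12.4 to 17.7 FPKM. Homo libraries thus lay on both sides of the WT values, and 5 of 7 were above the WT median. The log2 fold change was 0.19 with an SE of 0.28 (limma adjusted p = 0.948), and within the high-detection set it was -0.17. The near copy Ly6c2 holds 31.7% of the 50-base stretches of the longest Ly6c1 transcript and was above 0 in 2 libraries, so the division of fragments between the pair is uncertain.

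Abcb1a encodes P-glycoprotein, the pump that returns drugs from endothelium to blood (chromosome 5, 8660077 to 8748575, + strand). Its values formed 2 separate levels: 16.2, 1.86, 87.0, 0.895 and 1.17 FPKM in WT 1 to 5, and in Homo from 0.817 over a median of 0.969 to 94.9 FPKM. The 5 high libraries, at 16.2 to 94.9 FPKM, were WT 1, WT 3, Homo 1, Homo 3 and Homo 5, and the other 7 lay between 0.817 and 1.86. High and low libraries occurred in both genotypes and in both library sets, and the genotype difference was 0.026 with an SE of 1.39 on the log2 scale (limma adjusted p = 0.997). The highest library was 62.8 times the median for Abcb1a and between 1.40 and 4.27 times for the other 7 genes over the filter. The paralogous pump Abcb1b, which holds 15.5% of the 50-base stretches of the longest Abcb1a transcript, lay between 0 and 0.255 FPKM over the 12 libraries, and at 0.144, 0.109, 0.214, 0 and 0.0532 FPKM in the 5 high libraries in that order. The shortest of 4 annotated Abcb1a transcripts is 129 bases long, less than the 200 bp to which the cDNA was cut. Among genes tested, the highest library exceeded 10 times the median in 3.13% of 1054 genes with so short a transcript and in 2.09% of 12618 without one, and the part of that transcript in the Abcb1a values was not tested.

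**Figure D1:**
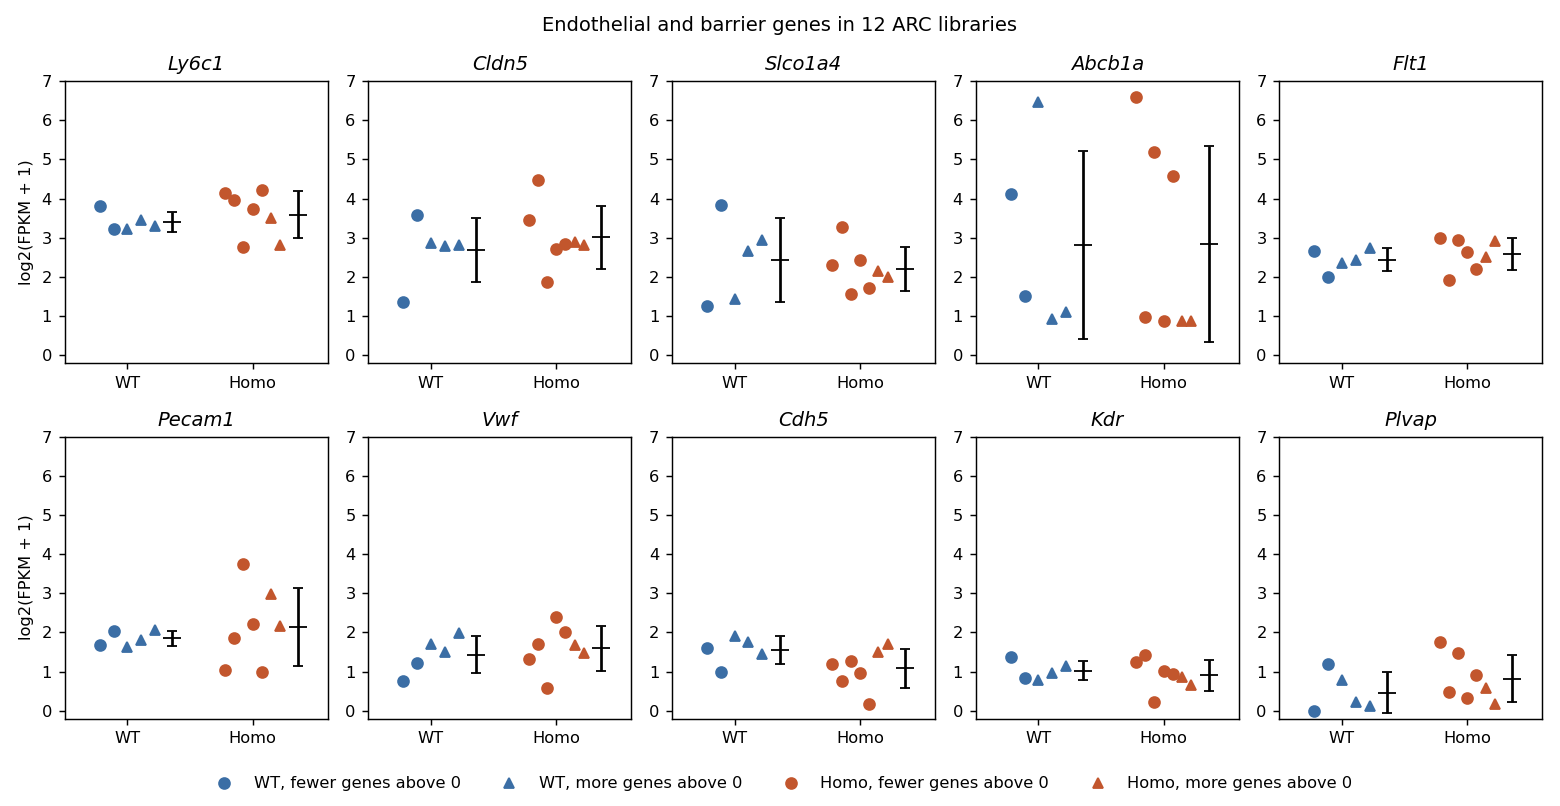
Each panel plots 1 gene as log2(FPKM + 1), one point per library, for WT (blue, n = 5) and Homo (orange, n = 7), with circles for the 7 libraries of the low-detection set (fewer genes above 0) and triangles for the 5 of the high-detection set (more genes above 0). Black marks are the mean ± SD. The genotypes overlap for all 10 genes (they do not for 0.221% of all genes tested), the Cldn5 triangles coincide near 6 FPKM, and Abcb1a divides into a high and a low level in both genotypes.

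Of the genes shared by most endothelium, Pecam1 encodes the adhesion molecule CD31 (chromosome 11, 106654217 to 106750628, - strand). It was even in WT, at 2.19, 3.13, 2.12, 2.50 and 3.17 FPKM, and ranged from 0.993 over a median of 3.51 to 12.3 FPKM in Homo. Homo 3, 4, 6 and 7 were above every WT library, Homo 1 and Homo 5 were below every one, and Homo 2 lay among them. The means of 2.62 ± 0.505 and 4.44 ± 4.00 FPKM gave a log2 fold change of 0.30 with an SE of 0.42 (limma adjusted p = 0.944), and it was 0.032 without Homo 3.

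Cdh5, the cadherin of endothelial adherens junctions, had the largest genotype difference of the 10 relative to its error (chromosome 8, 104101625 to 104144511, + strand). Its values were 2.04, 0.985, 2.76, 2.37 and 1.74 FPKM in WT 1 to 5, and 0.135 to 2.27 FPKM in Homo with a median of 1.27. Of the 7 Homo libraries, 1 was above the WT median, but all except the 3 lowest were within the WT range. The log2 fold change was -0.46 with an SE of 0.31 (limma adjusted p = 0.915, exact permutation p = 0.109), and -0.27 when genotypes were compared within library sets (exact permutation p = 0.205). Its values were 1.74 to 2.76 FPKM in the high-detection and 0.135 to 2.04 FPKM in the low-detection set, which holds 5 of the 7 Homo libraries and 2 of the 5 WT libraries.

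Flt1 and Kdr encode the VEGF receptors VEGFR1 and VEGFR2, the first a decoy for the growth factor and the second its main signalling receptor. Flt1 (chromosome 5, 147561604 to 147726011, - strand) was at 5.33, 3.01, 4.12, 4.42 and 5.73 FPKM in WT and at 2.78 to 6.97 FPKM in Homo, with a Homo median of 5.22. Its highest library was 1.40 times its median, the lowest such ratio among the 8 genes over the filter, and the genotypes overlapped. Its log2 fold change was 0.15 with an SE of 0.24 (limma adjusted p = 0.961), and 0.037 without WT 2. Kdr (chromosome 5, 75932827 to 75978458, - strand) was lower, at 1.58, 0.800, 0.711, 0.957 and 1.21 FPKM in WT and 0.159 to 1.67 FPKM in Homo with a median of 0.911. Homo 3 was far below the other libraries and the rest overlapped. Its log2 fold change was -0.12 (exact permutation p = 0.583), and -0.0031 without Homo 3, and in a fit with no filter on low values the limma adjusted p was 0.933.

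Vwf encodes von Willebrand factor, the clotting protein stored by endothelium of larger vessels (chromosome 6, 125546774 to 125686679, + strand). WT 1 to 5 were at 0.687, 1.32, 2.27, 1.85 and 2.93 FPKM, and Homo ran from 0.487 over a median of 2.198 to 4.22 FPKM. The lowest and the highest library were both Homo. The log2 fold change of 0.16, with an SE of 0.32 (limma adjusted p = 0.973), was -0.0092 without WT 1.

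Plvap encodes the diaphragm protein of fenestrated capillaries (chromosome 8, 71497765 to 71511752, - strand) and was the lowest of the 10 genes by median. It was listed at 0 in WT 1 and was at 1.31, 0.725, 0.166 and 0.0801 FPKM in WT 2 to 5. In Homo it was above 0 in every library, from 0.119 in Homo 7 over a median of 0.494 to 2.40 in Homo 1. Homo 1 and Homo 3 exceeded every WT library, and 6 of 7 Homo libraries were above the WT median of 0.166, but the genotypes overlapped. The log2 fold change was 0.35 (exact permutation p = 0.311), with an SE of 0.33 and a limma adjusted p of 0.878 in the fit with no filter, and within the high-detection set it was -0.0021. Few fragments stand behind these values in the libraries where this could be estimated. In the 7 libraries where the worth of 1 fragment could be read from the steps between low values, Plvap corresponded to about 1.18 to 15.4 fragments, against 21.5 to 92.9 for Cldn5, and the counting error per library was 25.5% to 92.2% against 10.4% to 21.6%. Such errors cover counting only, and differences of that size between single libraries are not detectable at this depth. No estimate covers WT 1, WT 2 and Homo 1 to 3, which hold the highest Plvap values (Homo 1, Homo 3 and WT 2) and the value of 0. Plvap overlaps Gtpbp3 on the other strand, and whether fragments were assigned by strand is not given in the sources used here.

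Across both genotypes, the order of median FPKM was Ly6c1, Cldn5, Flt1, Slco1a4, Pecam1, Vwf, Cdh5, Abcb1a, Kdr and Plvap. No 2 neighbours in this order differed by more than the SD of their difference over the 12 libraries, and neighbours stood in this order in 5 to 9 of 12 libraries. Ly6c1 exceeded Cldn5 by 0.64 ± 0.79 on the log2 scale (SD, n = 12) and Kdr exceeded Plvap by 0.28 ± 0.75.

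None of the 8 genes tested was called different between Homo and WT by limma, where 0.00713% of all 14017 genes were (1 gene, Jarid2). At an unadjusted p under 0.05 the count was also 0 of 8, against 5.55% of all genes, and the exact permutation test gave 0 of 10 (smallest p 0.109, where 0.001263 was the smallest the 792 splits allow). Genotypes overlapped for all 10 genes, and 0.221% of all genes had genotypes that did not. Of the 8 tested, 6 had a higher mean log2 value in Homo, against 49.3% of all genes, and their median log2 fold change was 0.15 against -0.0062 over all genes. SEs of 0.24 to 1.39 on the log2 scale leave room for differences of that size in either direction. The sign was the same in the low-detection and in the high-detection set for 6 of the 10 genes, and it differed for Abcb1a, Ly6c1, Vwf and Plvap. The median over all genes was -0.081 in the low-detection set and 0.13 in the high-detection set. No gene of the 8 was called for a difference between library sets, as 0.178% of all genes were, or for an interaction of genotype and set, as 0.0428% were.

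**Figure D2:**
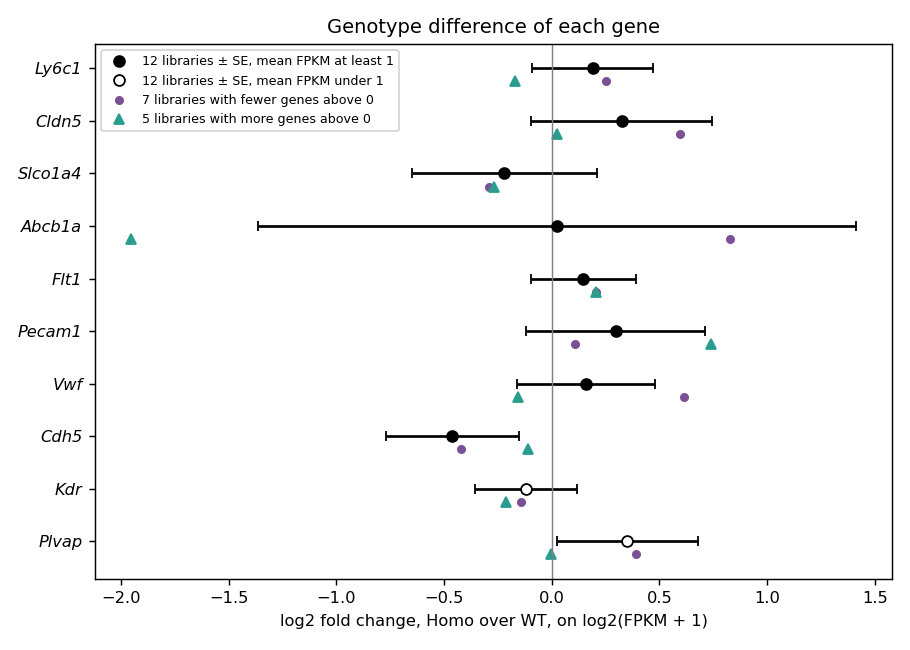
The horizontal axis is the log2 fold change of Homo over WT on log2(FPKM + 1), with black points for all 12 libraries ± SE from limma (open points for the 2 genes under the filter, fitted with no filter). Purple circles are the 7 libraries of the low-detection set and green triangles the 5 of the high-detection set. The SE bar crosses 0 for 8 genes and stops short of it for Cdh5 (-0.46) and Plvap (0.35), neither of which passed the test.

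Plvap was then set against the mean log2 value of the 4 barrier genes in each library. The difference, Plvap less barrier mean, was -2.63, -1.83, -2.71, -2.23 and -2.44 in WT 1 to 5, and between -2.69 and -1.38 in Homo with a mean of -2.10 ± 0.44. The means, -2.37 ± 0.35 in WT and -2.10 ± 0.44 in Homo, differed by 0.27, less than 1 SD, and by 0.25 when Abcb1a was left out. Without Abcb1a the SDs were larger, 0.48 in WT and 0.89 in Homo. With a pseudocount of 0.1 in place of 1 the difference was 0.96, since the pseudocount weighs heavily on values as low as those of Plvap. Cldn5 exceeded Plvap in every library. Where Plvap was above 0, the ratio of Cldn5 to Plvap ran from 1.499 in Homo 3 to 76.0 in WT 5, and it overlapped between genotypes.

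**Figure D3:**
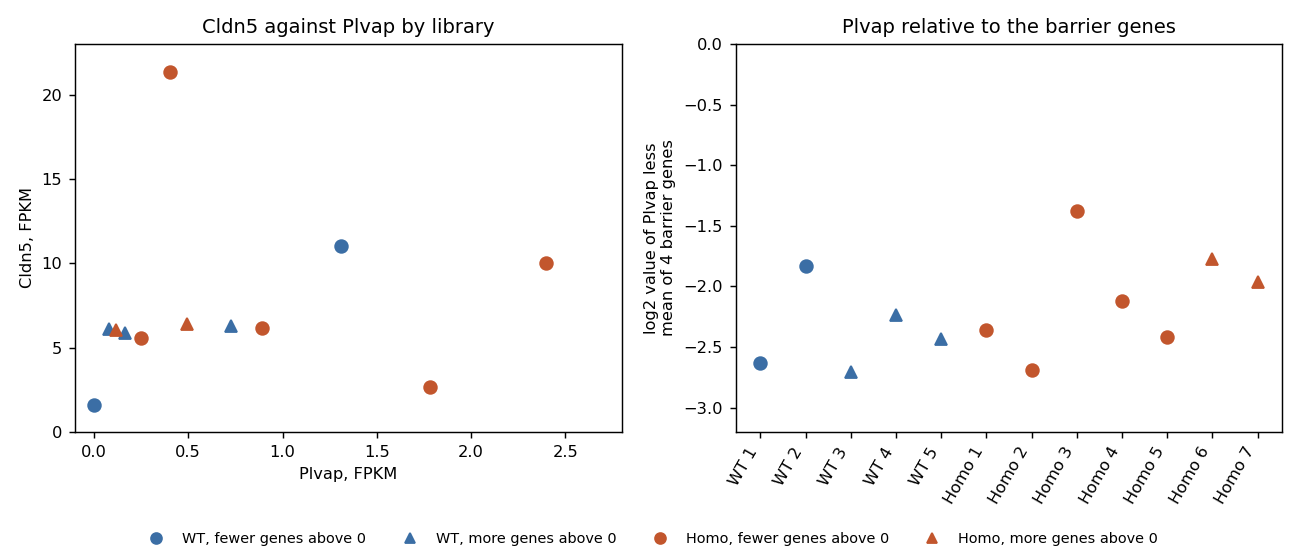
Left, Cldn5 against Plvap, both in FPKM, one point per library. Right, the log2 value of Plvap less the mean of the 4 barrier genes, by library. Colours are genotypes and shapes are library sets. Homo 2 has the highest Cldn5 (21.3 FPKM) with little Plvap, Homo 1 has the highest Plvap (2.40 FPKM), and on the right Homo 3 (-1.38) stands nearest to 0.

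The spread between libraries was described within each library set. In the high-detection set Cldn5 lay between 5.88 and 6.38 FPKM in all 5 libraries, 3 WT and 2 Homo, an SD of 0.041 on the log2 scale. In the low-detection set it ranged from 1.58 to 21.3 FPKM, an SD of 1.06. Within that set Homo 4 (5.58 FPKM) and Homo 5 (6.18 FPKM) lay near the high-detection values. The spread came from WT 1, WT 2 and Homo 1 to 3, the libraries in which the worth of 1 fragment could not be read. The ratio of the SDs, 26.0, was the highest of 13776 genes for which it could be formed, whose median was 1.44, so Cldn5 was singled out after its values were seen. The even values of the high-detection set varied by 3.29%, less than the counting error of 10.4% to 12.8% that 60.9 to 92.9 fragments per library carry. The spread was greater in the low-detection set for 9 of the 10 genes, as it was for 75.1% of all genes, and Abcb1a was the exception with a ratio of 0.923. On the log2 scale Cldn5 averaged 2.91 in the low-detection and 2.84 in the high-detection set, Flt1 2.48 and 2.60, and Plvap 0.88 and 0.37, and no gene of the 8 tested was called between the sets.

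**Figure D4:**
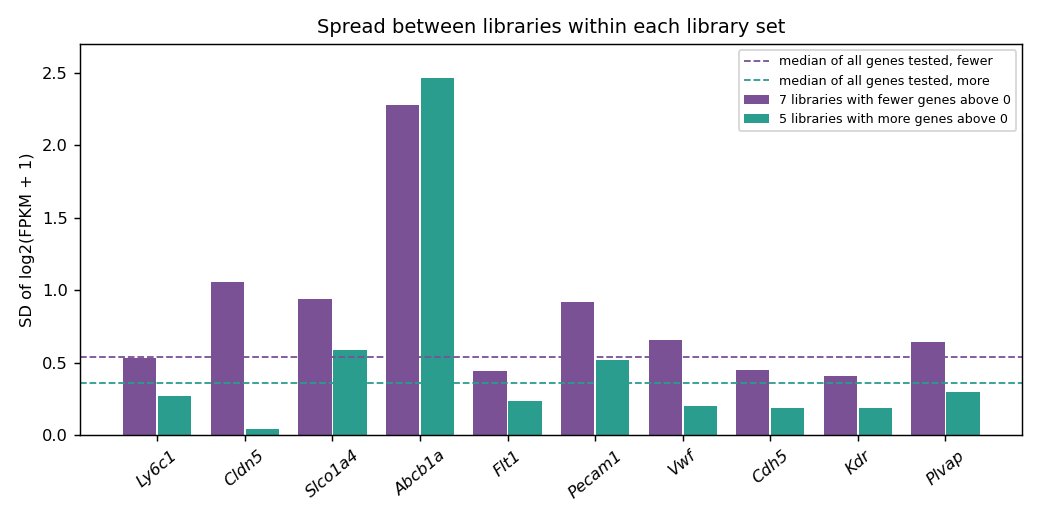
Bars give the SD of log2(FPKM + 1) between libraries for each gene, purple for the 7 libraries of the low-detection set and green for the 5 of the high-detection set, and dashed lines are the medians over all genes (0.54 and 0.36). Cldn5 falls from 1.06 to 0.041, and Abcb1a is the exception with bars of 2.28 and 2.47.

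Correlations across libraries show whether transcripts of one cell type rose and fell together. Over the 45 pairs, Pearson's r on log2(FPKM + 1) ran from -0.70 to 0.76 with a median of -0.040, and 21 pairs were positive. An unadjusted permutation p under 0.05 was found for 7 pairs, and 0 passed Benjamini-Hochberg adjustment over the 45 (smallest adjusted p 0.132). The highest was Kdr with Ly6c1, with r = 0.76 (permutation p = 0.00318) and Spearman's rho = 0.77 (permutation p = 0.00478), and r was 0.84 without Homo 3 and Homo 5 and 0.80 within the 7 low-detection libraries. Among barrier genes, Cldn5 and Slco1a4 had r = 0.73 (permutation p = 0.00665) and rho = 0.54 (permutation p = 0.0748). Their r was 0.57 without Homo 2 and WT 2 and 0.83 within the low-detection set. Cldn5 varied little outside WT 1, WT 2 and Homo 1 to 3, so its correlations with any gene rest mainly on those libraries, which the low-detection set also holds. Pecam1 ran against Ly6c1, with r = -0.70 (permutation p = 0.00883) and rho = -0.58 (permutation p = 0.0520), and r was -0.42 without Homo 3 and Homo 5. Homo 3, the library with the most Pecam1, had the lowest Ly6c1 and Kdr and the second lowest Cldn5.

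Of the 4 barrier genes, none had a negative r with Plvap over the 12 libraries, though Ly6c1 did within the low-detection set (-0.26). Its r was 0.22 with Cldn5 (permutation p = 0.491, rho = 0.46 with permutation p = 0.134), 0.023 with Slco1a4 and 0.067 with Ly6c1. With Abcb1a r was 0.63 (permutation p = 0.0290, adjusted p = 0.261) and rho was 0.59 (permutation p = 0.0497). That r was 0.30 without Homo 1 and Homo 3, the libraries with the most Plvap, and 0.58 within the low-detection set, which holds both. With the genes of all endothelium r lay between -0.33 and 0.072. The sign changed with the processing for Pecam1, Flt1, Ly6c1 and Vwf.

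**Figure D5:**
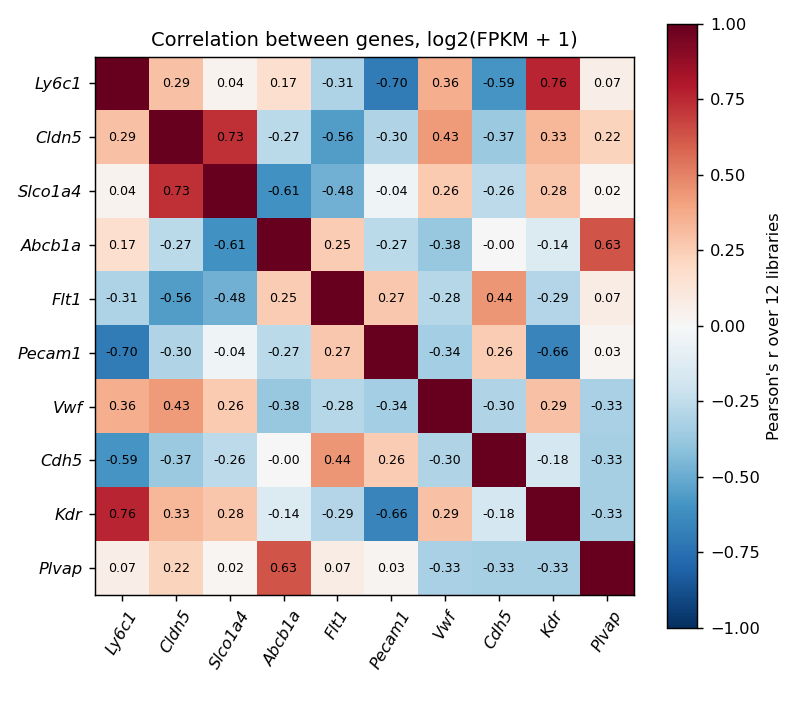
Each cell gives Pearson's r between 2 genes over the 12 libraries, on log2(FPKM + 1), red for positive and blue for negative. The strongest positive cells are Kdr with Ly6c1 (0.76), Cldn5 with Slco1a4 (0.73) and Abcb1a with Plvap (0.63), and the most negative is Pecam1 with Ly6c1 (-0.70).

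The genes most like Cldn5 across the 12 libraries, by Pearson's r over all 14017 genes tested, were Gm13554 (0.93), 2410066E13Rik (0.93), Mob1a (0.87), Dgcr8 (0.86) and A330021E22Rik (0.86). Slco1a4 stood at rank 111 and the other 6 of the 10 genes that passed the filter lower. Those most like Plvap were Gm14844 (0.85), Tcf3 (0.85), Sfrp2 (0.84), Actr5 (0.82) and Kcp (0.81), with Abcb1a at rank 146. These are the highest of very many correlations over libraries that differ in depth and in the number of genes detected, and are given as a description.

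Other genes of brain vessels were taken from lists. Of 23 further genes of endothelial identity and junctions, 17 were tested and 0 passed by limma, adjusted or unadjusted, with 9 higher and 8 lower in Homo and a median log2 fold change of 0.011. Egfl7, a secreted endothelial protein, was at 30.2 ± 5.65 FPKM in WT and 40.9 ± 22.8 in Homo, and S1pr1, a lipid receptor that steadies junctions, was at 14.6 ± 1.84 and 13.6 ± 5.55. Of 12 tight junction genes 8 were tested, 0 passed by limma adjusted or unadjusted, 2 were higher and 6 lower, and the median was -0.13. Among them Cldn12 was at 18.8 ± 19.2 and 15.5 ± 8.08 FPKM, and Jam2 at 10.2 ± 3.30 and 12.3 ± 5.42.

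Of 15 barrier transporters 11 were tested, 8 were higher and 3 lower in Homo, the median was 0.14, and limma called 0 with 1 at an unadjusted p under 0.05. That gene was Slc22a8, an organic anion exporter of barrier cells. It was at 5.67, 4.96, 1.19, 1.19 and 1.22 FPKM in WT 1 to 5 and at 0.156 to 2.22 FPKM in Homo. WT 1 and WT 2, the WT libraries of the low-detection set, were above every Homo library and the other WT libraries lay among them. Homo was not lower in the high-detection set, where Homo 6 was at 1.19 and Homo 7 at 2.22 FPKM. The means of 2.85 ± 2.27 and 0.918 ± 0.748 FPKM gave a log2 fold change of -0.89 with an SE of 0.40 (limma adjusted p = 0.899, exact permutation p = 0.0492, within library sets 0.0429).

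Wnt and Norrin signals from neural cells keep brain endothelium in its barrier state. Of 18 genes of this pathway 13 were tested, limma called 0 with 0 at an unadjusted p under 0.05, 4 were higher and 9 lower, and the median was -0.22. Its effector Ctnnb1 was at 60.3 ± 7.14 FPKM in WT and 72.1 ± 50.8 in Homo, the latter raised by Homo 1 at 175 FPKM, and the ligand Wnt7a was at 13.9 ± 21.5 and 14.8 ± 5.75 FPKM, with 51.9 FPKM in WT 4. Of 14 genes of VEGF, angiopoietin and Notch signalling 8 were tested, 0 passed by limma adjusted or unadjusted, 3 were higher and 5 lower, and the median was -0.065. The ligand Vegfb was at 38.7 ± 14.9 and 42.9 ± 9.12 FPKM and the co-receptor Nrp2 at 9.47 ± 2.59 and 9.98 ± 1.77. Of 5 further genes of fenestrated and portal vessels, only Igfbp3 passed the filter, at 2.36 ± 0.655 FPKM in WT and 2.72 ± 1.02 in Homo.

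Cells that lie around vessels or inside them were measured the same way. Of 10 pericyte genes 7 were tested and limma called 0, with Vtn, a matrix protein of brain pericytes, at an unadjusted p under 0.05. Vtn was at 13.0 ± 6.91 FPKM in WT and 24.3 ± 11.8 in Homo (log2 fold change 0.90, limma adjusted p = 0.887, exact permutation p = 0.0568, within library sets 0.0286), although 5 of the 7 pericyte genes were lower in Homo and the median was -0.12. Summed FPKM of the red blood cell genes ran from 42.4 to 591 in WT, highest in WT 5, and from 46.7 to 358 in Homo, highest in Homo 7, and limma called 0 of 5 with 0 at an unadjusted p under 0.05. Over the 12 libraries all 5 had a lower mean log2 value in Homo, Hbb-b1 by only -0.0013, but within library sets Hbb-b1 was 0.45 and Hba-a1 0.38 higher. These genes were higher in the high-detection set by a median of 1.58 on the log2 scale. Pituitary transcripts summed to 0 to 116 FPKM in WT, highest in WT 3, and 0 to 58.1 in Homo, highest in Homo 7, with Gh and Cga the only 2 tested and each at 0 in 7 libraries. Smooth muscle genes (2 tested, median -0.27) and meningeal fibroblast genes (3 tested, median -0.60) were lower in Homo with 0 called and 0 at an unadjusted p under 0.05. The part of blood, pituitary or meninges in the endothelial values was not tested.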

How the data were processed

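RNA of the laser-captured ARC was measured in 12 libraries, 5 WT and 7 Homo. The authors amplified the RNA and deposited 1 table of FPKM values for 38283 genes. Per the labels, TopHat2 2.0.8, Cufflinks 2.2.1 and GRCm38 were used, with the annotation not given in the sources used here. FPKM are not counts, and the depth of 5 libraries is unknown. In the other 7, FPKM times transcript length less 200 bases fell on steps worth 0.0835 to 0.315 FPKM per fragment per kb. All 12 columns were matched to samples by name, those of Homo 4 and Homo 5 with an extra letter in the column name.

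Values were taken as log2(FPKM + 1), so fold changes of low genes are understated. Genes with a mean of at least 1 FPKM (14017) entered a linear model of genotype in limma (version 3.58.1 under R 4.3.3), with trended, robust eBayes variances and Benjamini-Hochberg adjustment. Single genes were also tested by two-sided exact permutation of genotype over 792 splits, and over 210 within library sets. The smallest p these allow are 0.001263 and 0.004762. Correlations were tested with 100000 permutations. Scripts were tested on simulated data. Positions are from GENCODE release M21 on GRCm38, which holds 97.5% of the tested identifiers, and upstream sequences from RefSeq on GRCm38.p6. Shared 50-base stretches were counted over GENCODE transcripts.

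The 10 genes and the lists were chosen with earlier results of these data known. Besides the 10 genes, the text names genes of a list with an unadjusted p under 0.05, at most 3 per list, otherwise the 2 highest by mean, the 5 genes most correlated with Cldn5 and Plvap, close paralogs and Prkag2. One gene that this rule names is not reported here. Jarid2, Snap25, Agrp and the libraries at the extremes were named after their values were seen. Alternatives covered the pseudocount, filters, scaling, array weights, the variance model, library sets, Homo 1 to 5, a replicate block and each library left out.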

Additional observations from a re-analysis of the deposited data

How the results depend on the processing

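Limma called none of the 8 genes over the filter under any setting in which they were fitted, and neither Kdr nor Plvap with no filter. The filter at a mean of 5 FPKM kept only Cldn5, Abcb1a and Ly6c1. In the report's fit 0 of the 8 also had an unadjusted p under 0.05. The count of all genes called, 1 in the report, was 6 within the low-detection set, 19 within the high-detection set and 4 with Homo 1 to 5 alone, and 1 to 3 with 1 library left out, with 3 without WT 2 and 2 without Homo 4. No pairing by replicate number was seen. Correlations of same-numbered libraries were -0.054 to 0.029, and 0 of 5 correlated best with their own number. The best correlations with another number were also near 0 (-0.0056 to 0.069), so a weak pairing could not be detected this way. With a replicate block the count was 2.

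Cdh5 (-0.86 to -0.11) and Kdr (-0.31 to -0.0031) stayed lower in Homo, and Pecam1 (0.032 to 0.74) and Flt1 (0.037 to 0.26) stayed higher, under all alternatives run, with the values nearest 0 of Kdr and Pecam1 reached without Homo 3 and that of Flt1 without WT 2. Left-out libraries moved Cldn5 between -0.0044 and 0.55, the low end without WT 1, Slco1a4 between -0.51 and 0.13, the high end without WT 2, and Vwf between -0.0092 and 0.33, the low end without WT 1. Abcb1a changed direction in 11 of 25 alternatives. It was -0.064 with a pseudocount of 0.1, -0.076 with array weights, -0.44 with the library set as a term, -1.95 in the high-detection set and -0.56 by permutation within sets, and -0.60 to 0.94 with 1 library left out, turning without WT 2, 4 or 5 or Homo 1, 3 or 5. Homo 1, its farthest library, was singled out after seeing the data and is the one behind the -0.60. In the high-detection set Ly6c1 was -0.17, Vwf -0.16 and Plvap -0.0021. Plvap was 1.04 and Plvap less barrier mean 0.96 with a pseudocount of 0.1, and the latter was 0.15 to 0.40 with 1 library left out. Correlations with Plvap turned for Pecam1 to -0.011 (pseudocount 0.1) and -0.18 (without the 2 farthest libraries), for Flt1 to -0.088 and -0.74, for Ly6c1 to -0.26 in the low-detection set and for Vwf to 0.093 without the 2 farthest. The causes were not tested.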

Other observations

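Among the other cell types listed were tanycytes, the cells that line the third ventricle and touch both kinds of capillary. Of 8 tanycyte genes tested, 2 were higher and 6 lower in Homo, with a median of -0.49 and 0 called. Crym, a cytosolic thyroid hormone binding protein, was at 2.83 ± 2.18 FPKM in WT and 0.735 ± 0.642 in Homo (log2 fold change -0.98, limma adjusted p = 0.899, exact permutation p = 0.0379, within library sets 0.0667). All 7 Homo libraries were below the WT median of Crym, the genotypes overlapped, and it did not pass adjustment over all genes. Of the 5 genes tested from the microglia and macrophage list, all were higher in Homo with a median of 0.37 and 0 called. Over all genes tested, 49.3% were higher, the median was -0.0062, and 5.55% had an unadjusted p under 0.05. The perivascular macrophage markers of the list fell under the filter and were not tested. Among the 5 tested, Aif1 alone had an unadjusted p under 0.05. It was at 8.92 ± 2.22 FPKM in WT and 17.3 ± 7.56 in Homo (limma adjusted p = 0.870, exact permutation p = 0.0455, within library sets 0.0524). Astrocyte genes (7 tested, median 0.20), oligodendrocyte genes (6 tested, median 0.37) and neuronal genes (6 tested, median 0.026) had 0 called and 0 at an unadjusted p under 0.05 by limma.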
